A study of Craterostigma plantagineum with 12 samples.

Results

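This account compares leaves of the resurrection plant Craterostigma plantagineum 24 h after rewatering with leaves that were losing water, at 60% relative water content (RWC). It uses 6 of the 12 leaf RNA libraries of the study, 3 rehydrated and 3 at 60% RWC, chosen by the state named in their labels. The other libraries, fresh leaves at 100% RWC and desiccated leaves at 2% RWC, appear as levels beside a result, with no test of those states. They also entered an alternative fit of all 12 libraries, where they shared the estimate of spread. Fresh libraries were the most uneven. Their common biological coefficient of variation, the relative spread between pools, was 0.528. It was 0.142 at 60% RWC, 0.134 at 2% RWC and 0.261 in rehydrated leaves, so fresh means are the least certain. All plants were vegetatively propagated and kept at 60% humidity, with 14 h of light at 24 °C and 8 h of dark at 20 °C. The rehydrated plants had first been dried in their pots for 15 days to 2% RWC and were then submerged in water for 24 h before their leaves were taken. The 60% RWC plants had been dried in their pots for 3 to 4 days and had not been rewatered. Each library was made from an independent pool of leaves from 6 to 9 plants. The labels give no water content for the rehydrated leaves. Submersion, the earlier passage through the dry state and water content changed together between these groups, so their parts in any difference cannot be told apart.

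Leaves of this species can lose nearly all their water and recover. During drying they make late embryogenesis abundant (LEA) proteins and dehydrins, which are small hydrophilic proteins also found in dry seeds, they take down photosynthesis, and they turn their stored sugar octulose into sucrose. Abscisic acid (ABA) drives much of this program: receptors of the PYR/PYL family bind it and block clade A protein phosphatases 2C, which frees SnRK2 kinases to activate ABI5-like transcription factors. Rewatered leaves rebuild their thylakoids, resume growth of the cell wall and turn sucrose back into octulose, and transketolases are known for their expression at that stage in this species.

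Transcripts were read as contigs of one assembly, and a contig is a piece of a transcript, so several contigs can belong to 1 gene. Levels are given as RPKM, which divides reads by the length of the contig and the depth of the library. Total reads on contigs were 17114221, 15562432 and 17265650 in the rehydrated libraries and 17864253, 15295754 and 16533519 in the 60% RWC libraries. Log2 folds are rehydrated over 60% RWC from edgeR's quasi-likelihood test, and every adjusted p below is its Benjamini-Hochberg value over all 44634 contigs tested. A contig was called at an adjusted p below 0.05, with no minimum fold. The test scaled the libraries by TMM factors of 1.06 to 1.14 in rehydrated and 0.906 to 0.919 in 60% RWC libraries, so fitted log2 folds lie about 0.27 below the ratio of the RPKM values. Rehydrated replicate 3 stood apart from replicates 1 and 2: across contigs its log levels had a Pearson r of 0.942 and 0.946 with them, while those 2 had 0.971 with each other and the 60% RWC libraries 0.968 to 0.974. Values without that library are given beside counts of contigs that it moved by over 1.5 times.

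Rehydrated and 60% RWC leaves differed across much of the transcriptome. Of the contigs tested, 11734 were higher in rehydrated leaves (26.3%) and 10326 were lower (23.1%), 49.4% in all. Among the called contigs 4002 were at least 4-fold higher and 2507 at least 4-fold lower, and 378 and 128 passed 32-fold. The median log2 fold over all contigs was 0.04. Without rehydrated replicate 3, 11707 were higher and 11297 lower of 45141 tested; 10775 and 9946 were called in the same direction with and without it, and none in opposite directions. In 13919 contigs (31.2%) every rehydrated library lay above every 60% RWC library after scaling, and in 12922 (29.0%) below. These shares are the background against which the counts per list are read: a list with about 26.3% higher and 23.1% lower is near the transcriptome as a whole.

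Lists of contigs were made from words in the authors' descriptions. The lists with the greatest excess of contigs lower in rehydrated leaves held desiccation proteins, lipid droplet proteins, early light-induced proteins and ABA genes. LEA proteins, dehydrins and desiccation-related proteins had 67 of 86 tested contigs lower and 6 higher, with a median log2 fold of -3.63. The lists of light harvesting, photosystems, the Calvin cycle, chlorophyll synthesis, expansins and xyloglucan enzymes, cellulose synthases and tubulins leaned the other way, each with over 60% of its contigs higher. Sugar, transketolase and aquaporin lists had many called contigs in both directions. Ribosomal protein and ribosome assembly lists had smaller called shares than the background in both. Below, the most abundant contig of a list is the one with the highest mean RPKM over the 6 libraries, and its largest fold is taken among called contigs of at least median level.

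**Figure D1:**
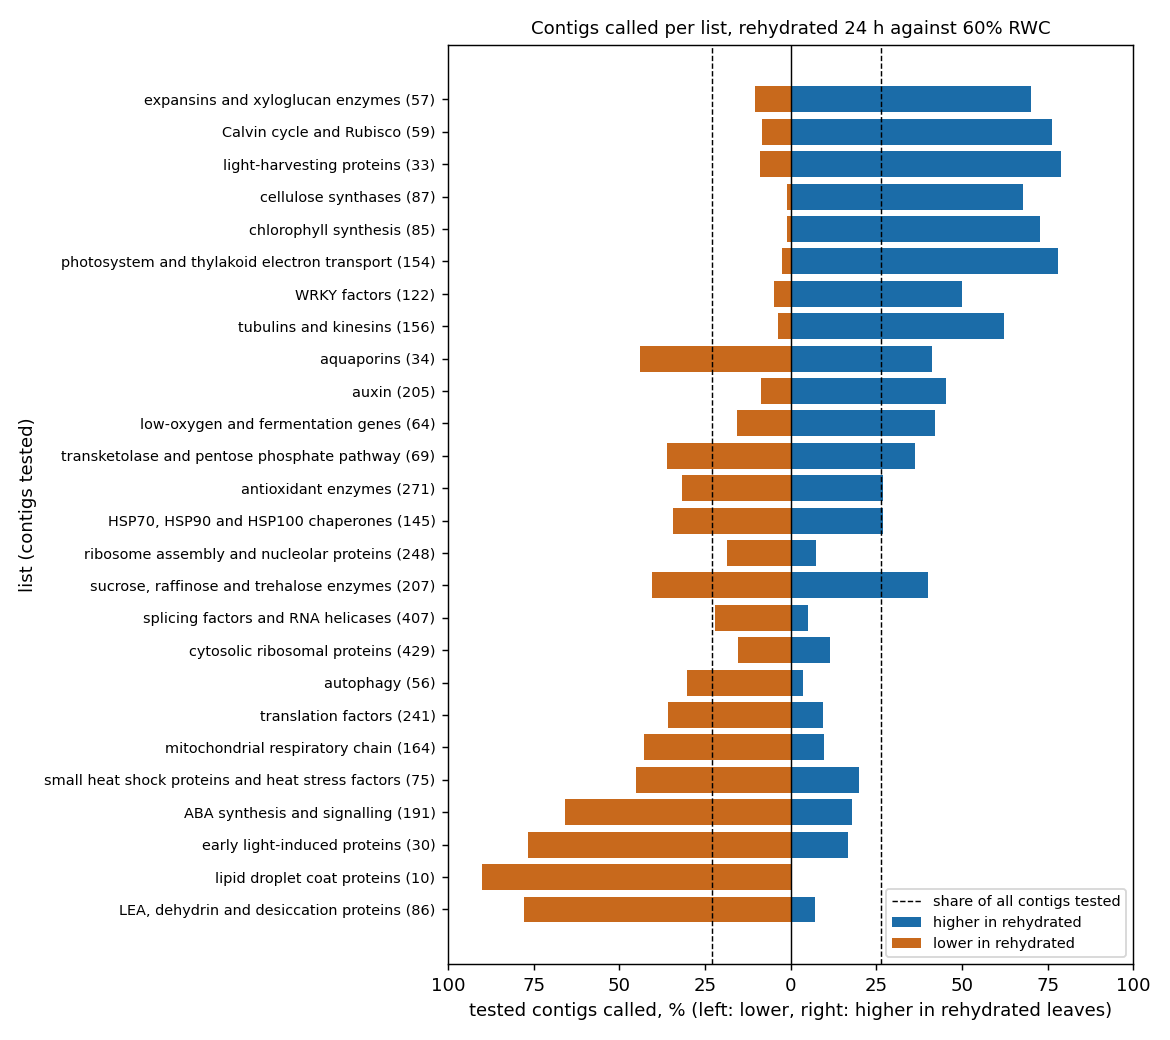
Share of tested contigs in each list called higher (bars to the right, %) or called lower (bars to the left, %) in leaves rehydrated for 24 h than in leaves at 60% RWC, with the number tested in parentheses; dashed lines mark the shares over all contigs, 26.3% higher and 23.1% lower. LEA proteins lie at 77.9% lower and 6.98% higher, photosystem contigs at 77.9% higher and 2.6% lower, and sugar enzymes at 40.1% higher and 40.6% lower.

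Markers of the cell types a leaf pool could hold moved with these groups, and their part in the results was not tested. Mesophyll markers were photosynthesis genes named Rubisco small chain or chlorophyll a-b binding protein, so they share contigs with lists described below. They took 2.04%, 1.71% and 1.38% of reads in rehydrated libraries and 0.514%, 0.527% and 0.579% in 60% RWC libraries. Of 34 contigs 27 were higher and 3 lower. Epidermis and cuticle markers were higher in 59.8% of 169 contigs and lower in 32. Their share of reads did not rise with these counts. It was 0.265%, 0.253% and 0.245% in rehydrated and 0.281%, 0.265% and 0.286% in 60% RWC libraries, with a slight overlap. Guard cell markers were higher in 14 of 29 and lower in 2. Vascular markers were higher in 13 of 70 and lower in 24. Root markers, a check on the leaf label, took 0.0257%, 0.0259% and 0.0231% of reads in rehydrated and 0.0271%, 0.0271% and 0.0275% in 60% RWC libraries. In bulk leaves, fewer cells of a type and less RNA per cell cannot be told apart.

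The steepest differences were in transketolases, an ABA receptor, a BURP domain protein and a cytochrome P450 on the higher side, and in dehydrins and vacuolar aquaporins on the lower side. A rule took the 6 described contigs with the highest and the 6 with the lowest folds among called contigs of at least median level. It admitted only contigs whose libraries did not overlap between the groups after scaling, and 1 contig per description. The first was Cp_V2_contig_1419, described as AT3G60750-like after an Arabidopsis transketolase locus. It had 1034, 911 and 558 RPKM in the rehydrated libraries, against 0.15, 0.175 and 0.162 RPKM in the 60% RWC libraries. These were 15528 reads against 3, a ratio of 5150 with an exact 95% counting interval from 1762 to 24980. Cp_V2_contig_20436, a BURP domain protein, had 34.1, 20.3 and 37.8 RPKM in the rehydrated libraries and no read in any 60% RWC library, which makes it at least 143-fold higher against a floor of 3 counts per library. Cp_V2_contig_12317, the ABA receptor PYL4, had 20.4, 32.2 and 76 RPKM and again no read at 60% RWC, at least 72.4-fold higher. Floors and counting intervals cover counting error only and leave out the spread between pools. The reads also carry no molecular identifiers. Cp_V2_contig_47176, a cytochrome P450 83B1-like contig, was uneven: it had 2.59, 6.22 and 137 RPKM in the rehydrated libraries against 1 read in all at 60% RWC. It was called (log2 fold 10.91, SE 3.15, adjusted p = 0.0375), but its adjusted p was 0.133 at its largest when 1 library was left out. It was 2.39e-06 without rehydrated replicate 3, at a log2 fold of 7.32.

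On the lower side, Cp_V2_contig_10660, a dehydrin, had 66.6, 70.1 and 61.5 RPKM in the rehydrated libraries, against 3612, 3928 and 3449.7 RPKM in the 60% RWC libraries (log2 fold -6.06, SE 0.17, adjusted p = 6.68e-08). Cp_V2_contig_23383, a copper-binding cupredoxin, had 19.4, 25.9 and 25.5 RPKM in the rehydrated libraries, against 1039.6, 1278 and 1057 RPKM in the 60% RWC libraries (log2 fold -5.84, SE 0.20, adjusted p = 7.5e-08). Cp_V2_contig_3847, named early dehydration-responsive 1 in this species, had 53.2, 53.5 and 25.8 RPKM in the rehydrated libraries, against 1920.3, 2033 and 2123 RPKM in the 60% RWC libraries (log2 fold -5.80, SE 0.28, adjusted p = 3.34e-07). Groups without overlap were a condition of the rule, and in all 3 the 60% RWC libraries lay close together. The tonoplast aquaporins Cp_V2_contig_1841 and Cp_V2_contig_1109, the desiccation-related Cp_V2_contig_2915 and the transketolases Cp_V2_contig_1819 and Cp_V2_contig_15357 complete the 12 and are described with their families.

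**Figure D2:**
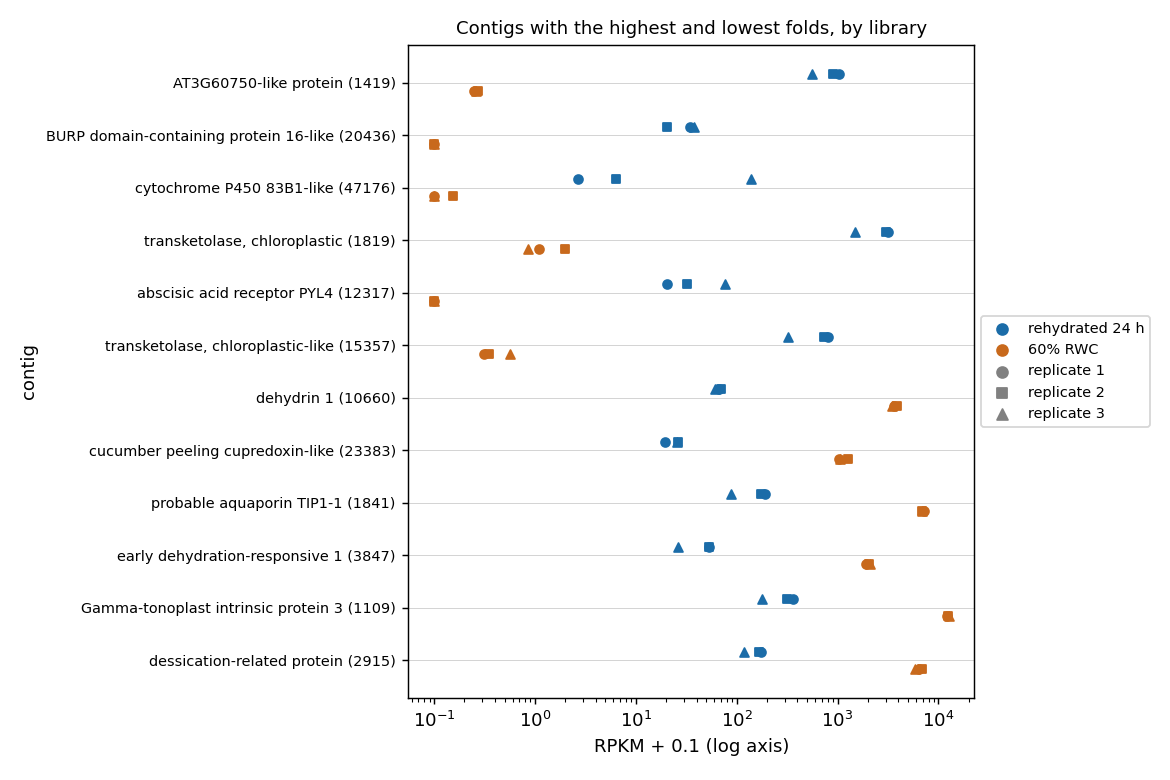
RPKM + 0.1 (log axis) in each library of the 6 contigs with the highest and the 6 with the lowest folds; blue, above, are rehydrated 24 h libraries and orange 60% RWC libraries, and the marker shape gives the replicate. The rule admitted only contigs whose groups did not overlap after scaling. In the cytochrome P450 contig rehydrated replicate 3 (137 RPKM) lies far above replicates 1 and 2 (2.59 and 6.22 RPKM).

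Desiccation proteins, the most abundant transcripts of partly dried leaves named here, were far lower in rehydrated leaves. As a share of all reads the LEA list took 0.461%, 0.419% and 0.386% in rehydrated libraries, against 7.16%, 7.83% and 7.06% in 60% RWC libraries. Its most abundant contig, Cp_V2_contig_4317, matches a desiccation-related protein of this species and had 1669, 1583 and 1478 RPKM in the rehydrated libraries, against 55812, 72001 and 62005 RPKM in the 60% RWC libraries (log2 fold -5.60, SE 0.20, adjusted p = 7.5e-08). Another contig with the same match, Cp_V2_contig_2915, had 174, 165 and 118 RPKM in the rehydrated libraries, against 6486, 6918 and 5850.4 RPKM in the 60% RWC libraries (log2 fold -5.67, SE 0.20, adjusted p = 7.74e-08). Cp_V2_contig_4317 did not overlap between the groups, which for Cp_V2_contig_2915 was a condition of the rule. Across the 4 states Cp_V2_contig_4317 averaged 629 RPKM in fresh, 63273 in 60% RWC, 40294 in 2% RWC and 1577 in rehydrated leaves. By name, all 13 desiccation-related contigs tested were lower in rehydrated leaves (median log2 fold -4.48) and 9 of 12 dehydrin contigs were (median -3.75), with none higher. These and the other families below were grouped, and the contigs outside the rule chosen, after their values were seen.

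Members of the LEA list differed in how far their rehydrated levels lay below those at 60% RWC. Dehydrin Cp_V2_contig_22485 had 495, 513 and 362 RPKM in the rehydrated libraries, against 12066, 13729.9 and 10282 RPKM in the 60% RWC libraries (adjusted p = 1.1e-07). Dehydrin Cp_V2_contig_15111 lay further down, at 203, 258 and 279.7 RPKM in rehydrated leaves and 8251, 8966 and 8670.3 RPKM in 60% RWC leaves (log2 fold -5.39, SE 0.20, adjusted p = 8e-08). The LEA proteins Cp_V2_contig_44929 and Cp_V2_contig_9033, of the Dc3 kind, had log2 folds of -4.69 and -5.03 (SE 0.25 and 0.23). The embryonic DC-8-like protein Cp_V2_contig_6178 had a log2 fold of -4.27 (SE 0.28). The dehydrin Cp_V2_contig_802 differed least between the groups of those named, with 1366, 1032 and 1364 RPKM in the rehydrated libraries, against 3280.2, 2964 and 2613 RPKM in the 60% RWC libraries (log2 fold -1.50, SE 0.18, adjusted p = 6.3e-05). Unlike the others it averaged 2381 RPKM in fresh leaves and 59.7 RPKM at 2% RWC, so its highest states here were the fresh and the partly dried. An undescribed contig with no protein match, Cp_V2_contig_26669, followed the desiccation proteins: it had 269, 299 and 221 RPKM in the rehydrated libraries, against 16820, 16658 and 15157 RPKM in the 60% RWC libraries (log2 fold -6.22, SE 0.19, adjusted p = 7.5e-08).

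Early light-induced proteins, which bind chlorophyll or its precursors under stress, had 23 of 30 tested contigs lower in rehydrated leaves and 5 higher, and 13 of the 30 also stand in the LEA list through the name of one family, DSP-22 of this species. The most abundant, the DSP-22 contig Cp_V2_contig_28200, had 127, 90 and 73.7 RPKM in the rehydrated libraries, against 1444, 1128 and 1097 RPKM in the 60% RWC libraries (log2 fold -3.93, SE 0.22, adjusted p = 5.02e-07). Cp_V2_contig_32069 had the largest fold, with 62, 72 and 68.4 RPKM in the rehydrated libraries, against 1086, 1075 and 1200.5 RPKM in the 60% RWC libraries (log2 fold -4.32, SE 0.15, adjusted p = 7.5e-08). Among the 5 that were higher, Cp_V2_contig_4103 had 63.2, 52.7 and 32.2 RPKM in the rehydrated libraries, against 17.6, 11.2 and 10.1 RPKM in the 60% RWC libraries (log2 fold 1.64, SE 0.28, adjusted p = 0.00118). Cp_V2_contig_6096 and Cp_V2_contig_26538 of these 5 had log2 folds of 2.52 and 1.18 (SE 0.28 and 0.21). Lipid droplet coat proteins, which hold the surface of oil bodies, had 9 of 10 contigs lower and none higher. The caleosin-type Cp_V2_contig_773 had 36.9, 34.5 and 14.8 RPKM in the rehydrated libraries, against 511, 499.6 and 475 RPKM in the 60% RWC libraries (log2 fold -4.39, SE 0.32, adjusted p = 1.05e-05). The oleosin Cp_V2_contig_20784, at 68.7, 84.3 and 77 RPKM in rehydrated leaves and 241, 168 and 175 RPKM in 60% RWC leaves, differed less between these groups (log2 fold -1.61, SE 0.17). It was most abundant in 2% RWC leaves (mean 1212 RPKM), where Cp_V2_contig_773 averaged 141 RPKM. Cp_V2_contig_7031, the plastid outer envelope pore protein 16-2 known from seeds, had 302, 301 and 199 RPKM in the rehydrated libraries, against 7945, 8928 and 7929.5 RPKM in the 60% RWC libraries (log2 fold -5.23, SE 0.21, adjusted p = 1.02e-07).

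In a few desiccation-linked contigs rehydrated replicate 3 was far below replicates 1 and 2. The small membrane protein RCI2A, Cp_V2_contig_16667, had 13.3, 16.5 and 2.63 RPKM in the rehydrated libraries, against 278, 292 and 241 RPKM in the 60% RWC libraries (log2 fold -4.94, SE 0.58, adjusted p = 0.000693). Poly(ADP-ribose) polymerase 3, an enzyme that modifies proteins with ADP-ribose, was lower in all 11 of its contigs (median log2 fold -3.70). Its contig Cp_V2_contig_26393 had 22.1, 24.3 and 6.09 RPKM in the rehydrated libraries, against 194, 189 and 186 RPKM in the 60% RWC libraries (log2 fold -3.73, SE 0.49, adjusted p = 0.000958), with a log2 fold of -3.35 without replicate 3. Cp_V2_contig_39769 of the same name had 18.6, 19.3 and 4.38 RPKM in rehydrated leaves and 186, 169 and 183 RPKM in 60% RWC leaves. The lowest rehydrated library was the same in each, and the groups did not overlap.

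The ABA pathway was lower in rehydrated leaves downstream of the receptors, and the receptors were higher. Over the whole list 126 of 191 contigs were lower and 34 higher, with a median log2 fold of -1.58. Its most abundant contig, the ABA-inducible LEA protein Cp_V2_contig_28204, had 229.9, 216 and 166 RPKM in the rehydrated libraries, against 6605, 6586 and 6040.2 RPKM in the 60% RWC libraries (log2 fold -5.25, SE 0.18, adjusted p = 7.71e-08). For ABA synthesis, 7 of 9 contigs of 9-cis-epoxycarotenoid dioxygenase (NCED), the enzyme that commits carotenoids to ABA, were lower and none higher. Cp_V2_contig_16895 had 17.3, 14.7 and 9.07 RPKM in rehydrated leaves and 26.3, 21.7 and 24.5 RPKM in 60% RWC leaves (log2 fold -1.10, SE 0.21, adjusted p = 0.00173). Cp_V2_contig_11659 had 5.26, 3.16 and 1.13 RPKM in rehydrated leaves and 20, 16.1 and 12.6 RPKM in 60% RWC leaves (log2 fold -2.63, SE 0.49, adjusted p = 0.00454). Cp_V2_contig_6778 ran against them, at 8.13, 14.4 and 29 RPKM in rehydrated leaves and 5.25, 6.22 and 5.33 RPKM in 60% RWC leaves, with rehydrated replicate 3 highest and an adjusted p of 0.0504 by edgeR's quasi-likelihood test, which misses the threshold. Without that library it was called higher (log2 fold 0.68, adjusted p = 0.0145), the one NCED contig that was. The ABA 8'-hydroxylases, which break ABA down, had 5 of 14 contigs lower and none higher, and 8 lower without rehydrated replicate 3. Their summed level overlapped between the groups, at 83.1, 114 and 181 RPKM in rehydrated leaves and 141, 129 and 106 RPKM in 60% RWC leaves. One of them, Cp_V2_contig_16869, had 13.8, 25.2 and 43.9 RPKM in rehydrated leaves and 26.9, 19.1 and 14.2 RPKM in 60% RWC leaves; the groups overlapped and its log2 fold was 0.21 (SE 0.46, adjusted p = 0.746). Cp_V2_contig_396 had lower values, 6.33, 7.46 and 6.65 RPKM in rehydrated leaves and 10.2, 14.1 and 9.35 RPKM in 60% RWC leaves (log2 fold -0.99, SE 0.19, adjusted p = 0.00139).

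Receptors were higher in 21 of 24 contigs and lower in 2, with a median log2 fold of 4.97. Beside PYL4 Cp_V2_contig_12317, the PYL4-like Cp_V2_contig_12318 had 132, 141 and 194 RPKM in the rehydrated libraries, against 4.43, 5.18 and 3.09 RPKM in the 60% RWC libraries (log2 fold 4.94, SE 0.26, adjusted p = 3.9e-07). The PYL8-like Cp_V2_contig_22050 had 75.8, 65.4 and 85.5 RPKM in the rehydrated libraries, against 1.67, 1.95 and 2.23 RPKM in the 60% RWC libraries (log2 fold 5.01, SE 0.21, adjusted p = 1.1e-07). Another PYL8-like contig, Cp_V2_contig_12664, differed less, with 138, 134 and 171 RPKM in rehydrated leaves and 58.3, 51.8 and 55.9 RPKM in 60% RWC leaves (log2 fold 1.15, SE 0.16, adjusted p = 0.000158). Receptor contigs thus ranged from those nearly silent at 60% RWC to one present in every state, and in each of these 4 replicate 3 was the highest rehydrated library.

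The phosphatases that receptors block, protein phosphatases 2C 16, 37 and 50 by name, were lower in all 45 contigs (median log2 fold -2.64). Cp_V2_contig_8005 had 71, 74.3 and 55 RPKM in the rehydrated libraries, against 295, 232 and 276 RPKM in the 60% RWC libraries (log2 fold -2.28, SE 0.15, adjusted p = 1.29e-06), and averaged 107 RPKM in fresh leaves. Cp_V2_contig_39202 had 16.6, 12.2 and 6.86 RPKM in the rehydrated libraries, against 126, 108 and 93.1 RPKM in the 60% RWC libraries (log2 fold -3.47, SE 0.28, adjusted p = 7.42e-06), and only 3.59 RPKM in fresh leaves. The SRK2 kinases, the SnRK2 family, were lower in 9 of 12 contigs and higher in none, with a median log2 fold of -1.14. Cp_V2_contig_4637 had 97.1, 98.8 and 85 RPKM in rehydrated leaves and 179, 180.4 and 177 RPKM in 60% RWC leaves (log2 fold -1.20, SE 0.12, adjusted p = 2.23e-05). ABI5-like factors, the bZIP proteins the kinases activate, were lower in 19 of 27 contigs and higher in 5. Cp_V2_contig_42134 had 22.1, 19.8 and 11 RPKM in the rehydrated libraries, against 122, 103 and 119.8 RPKM in the 60% RWC libraries (log2 fold -2.98, SE 0.23, adjusted p = 5.2e-06). Receptors against phosphatases, kinases and factors therefore split by role, with the calls in opposite directions.

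**Figure D3:**
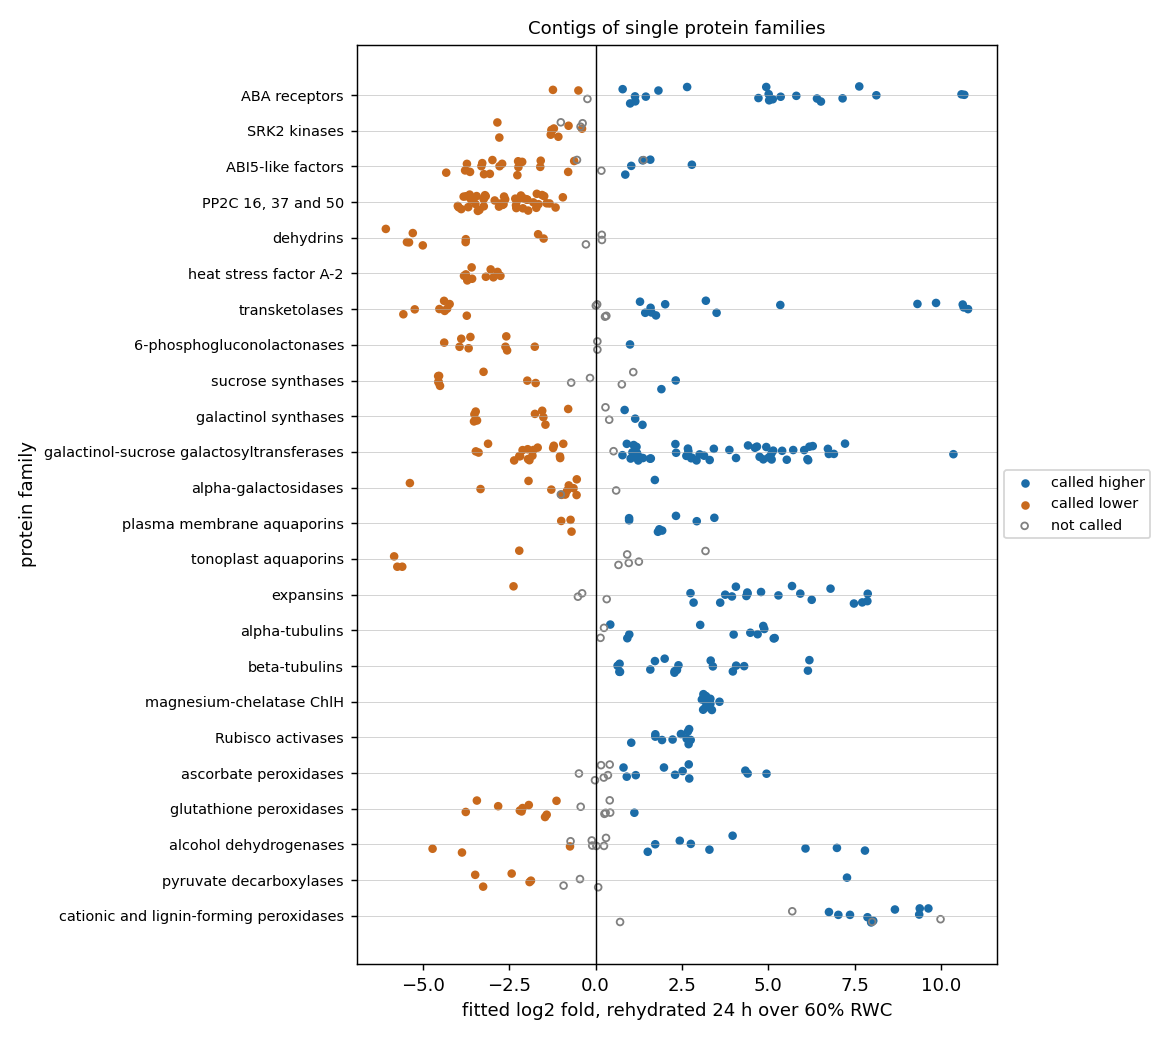
Fitted log2 fold (rehydrated 24 h over 60% RWC) of each tested contig of 24 protein families named in the descriptions; blue points were called higher, orange points lower and open points not called. ABA receptors lie almost wholly to the right and the phosphatases 2C 16, 37 and 50 wholly to the left; transketolases run from -5.56 to 10.77.

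Transketolase, which moves carbon units between sugar phosphates in the Calvin cycle and the pentose phosphate pathway, split by contig. Log2 folds ran from -5.56 to 10.77 over the contigs described by that name. Of 26 tested contigs with that name 14 were higher in rehydrated leaves, 8 lower and 4 not called. The contigs that were highest by fold all had the same best match, transketolase TKT7_CRAPL of this species. The most abundant of them, Cp_V2_contig_1819, had 3176, 3010 and 1486 RPKM in the rehydrated libraries, against 0.997, 1.88 and 0.746 RPKM in the 60% RWC libraries (log2 fold 10.77, SE 0.47, adjusted p = 6.97e-07). Cp_V2_contig_15357 had 809.8, 741 and 322 RPKM in the rehydrated libraries, against 0.213, 0.249 and 0.461 RPKM in the 60% RWC libraries (log2 fold 10.65, SE 0.53, adjusted p = 2.17e-06). Cp_V2_contig_14837, Cp_V2_contig_6311 and Cp_V2_contig_14836 share that match and had log2 folds of 10.62, 9.85 and 9.31. Cp_V2_contig_1419 shares it too, but its description lacks the name, so it is not among the 26. Its log2 fold was 11.90, with 3 reads at 60% RWC. These 6 contigs are 360 to 730 bases long. Replicate 3 was lowest of the rehydrated libraries in each, and still far above every 60% RWC library.

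By state, Cp_V2_contig_1819 averaged 204 RPKM in fresh, 1.21 in 60% RWC, 1.5 in 2% RWC and 2558 in rehydrated leaves, the highest mean of the 4 states. Cp_V2_contig_951, whose best match is the species' TKTA_CRAPL, had 477.7, 369 and 299 RPKM in the rehydrated libraries, against 7.23, 8.49 and 7.61 RPKM in the 60% RWC libraries (log2 fold 5.34, SE 0.21, adjusted p = 9.92e-08), and its fresh mean was 353 RPKM. Other contigs were not called: Cp_V2_contig_1735, of 2136 bases, had 971, 861 and 736 RPKM in rehydrated leaves and 692, 624 and 798 RPKM in 60% RWC leaves (log2 fold 0.01, SE 0.16). Cp_V2_contig_3769, named after the species' chloroplast form TKTC_CRAPL, had 173, 161 and 136 RPKM in rehydrated leaves and 116, 132 and 129 RPKM in 60% RWC leaves (log2 fold 0.05, SE 0.13). Cp_V2_contig_10889 was higher by less than the TKT7_CRAPL set, with 535, 487 and 466 RPKM in rehydrated leaves and 137, 123 and 149 RPKM in 60% RWC leaves (log2 fold 1.59, SE 0.13, adjusted p = 5.08e-06). Cp_V2_contig_920 was not called (log2 fold 0.31, SE 0.13, adjusted p = 0.0677) but was without rehydrated replicate 3 (log2 fold 0.34, adjusted p = 0.019). A further set was high at 60% RWC: Cp_V2_contig_31210, of 2067 bases, had 12.4, 11.7 and 5.24 RPKM in the rehydrated libraries, against 195, 197 and 159.8 RPKM in the 60% RWC libraries (log2 fold -4.52, SE 0.31, adjusted p = 7.16e-06). Also in that set, Cp_V2_contig_4849 and Cp_V2_contig_44446 had log2 folds of -4.36 and -4.38 (SE 0.21 and 0.18). Cp_V2_contig_44446 has the same best match as Cp_V2_contig_951, so that match held contigs in both directions.

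The list of transketolases and the pentose phosphate pathway as a whole had called contigs in both directions. It had 25 of 69 contigs higher, 25 lower and a median log2 fold of 0.05. Contigs of 6-phosphogluconolactonase, an early step of the oxidative branch, were lower in 9 of 12 and higher in 1. Among them Cp_V2_contig_28491 had 11.3, 9.72 and 6.67 RPKM in the rehydrated libraries, against 152, 142 and 183 RPKM in the 60% RWC libraries (log2 fold -4.38, SE 0.21, adjusted p = 1.72e-07). Cp_V2_contig_10805 had 28.3, 29.5 and 32.5 RPKM in rehydrated leaves and 161, 141 and 155 RPKM in 60% RWC leaves (log2 fold -2.60, SE 0.15, adjusted p = 4.38e-07), and was highest at 2% RWC (mean 266 RPKM).

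Sugar enzymes moved in both directions, by enzyme. The list had 83 of 207 contigs higher and 84 lower. Sucrose synthases, which make or cleave sucrose, were lower in 8 of 14 contigs and higher in 2. The most abundant of them named here, Cp_V2_contig_881, had 57.8, 44.5 and 21.2 RPKM in the rehydrated libraries, against 787, 852 and 729 RPKM in the 60% RWC libraries (log2 fold -4.54, SE 0.34, adjusted p = 1.72e-05). Cp_V2_contig_1064 and Cp_V2_contig_19347 were much alike, with log2 folds of -4.50 and -4.52 (SE 0.47 and 0.39), and in all 3 rehydrated replicate 3 was lowest. Against these, Cp_V2_contig_30506 had 19.4, 36.1 and 89.8 RPKM in rehydrated leaves and 11, 11.8 and 9.84 RPKM in 60% RWC leaves (log2 fold 1.91, SE 0.59, adjusted p = 0.0389), and its adjusted p reached 0.108 with 1 library left out; its log2 fold was 1.02 without rehydrated replicate 3. Sucrose-phosphate synthase, the main route of sucrose synthesis, had 3 of 6 contigs lower, none higher. Cp_V2_contig_4687 had 64.4, 61.4 and 41.9 RPKM in rehydrated leaves and 111, 94.8 and 112 RPKM in 60% RWC leaves (log2 fold -1.20, SE 0.17, adjusted p = 0.000197). Among invertases, which split sucrose, 13 of 30 contigs were higher and 8 lower. The vacuolar-type Cp_V2_contig_57 had 74.1, 52.2 and 79.6 RPKM in rehydrated leaves and 17.5, 17.4 and 15.1 RPKM in 60% RWC leaves (log2 fold 1.78, SE 0.19, adjusted p = 3.39e-05).

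For raffinose sugars the first enzyme and the next differed. Galactinol synthase, the first step, was lower in 9 of 14 contigs and higher in 3. The most abundant contig of the whole sugar list, galactinol synthase 1 Cp_V2_contig_423, had 877, 811 and 1127 RPKM in the rehydrated libraries, against 2679, 2492 and 2733 RPKM in the 60% RWC libraries (log2 fold -1.75, SE 0.18, adjusted p = 2.08e-05), and at 1185 RPKM in fresh leaves it was abundant in every state. Galactinol synthase 2, Cp_V2_contig_11154, differed more, with 9.66, 8.18 and 6 RPKM in rehydrated leaves, against 75.1, 65.4 and 85 RPKM in 60% RWC leaves (log2 fold -3.51, SE 0.19, adjusted p = 3.54e-07). Galactinol-sucrose galactosyltransferases, which include raffinose synthases, were higher in 51 of 70 contigs and lower in 18, with a median log2 fold of 2.48. Cp_V2_contig_12814 had 233, 166 and 202 RPKM in the rehydrated libraries, against 3.6, 1.62 and 1.5 RPKM in the 60% RWC libraries (log2 fold 6.18, SE 0.31, adjusted p = 4.59e-07). Cp_V2_contig_23 and Cp_V2_contig_1977, at similar rehydrated levels (means 221 and 217 RPKM), had log2 folds of 2.77 and 4.06 (SE 0.14 and 0.26). The largest fold of the list was Cp_V2_contig_17594, of the same description as Cp_V2_contig_12814, with 51.6, 27.5 and 41.6 RPKM in the rehydrated libraries, against 0.117, 0.274 and 0.254 RPKM in the 60% RWC libraries (log2 fold 7.22, SE 0.41, adjusted p = 4.31e-07). Cp_V2_contig_40378, which shares its description with Cp_V2_contig_23 and Cp_V2_contig_1977, went the other way with 88.3, 111 and 62.4 RPKM in the rehydrated libraries, against 335, 306 and 289 RPKM in the 60% RWC libraries (log2 fold -2.11, SE 0.19, adjusted p = 7.93e-06). It was highest at 2% RWC (mean 525 RPKM) while Cp_V2_contig_12814 was lowest there (mean 0.846 RPKM). Cp_V2_contig_3352 was likewise highest at 2% RWC (mean 575 RPKM) and lower in rehydrated leaves (log2 fold -0.93, SE 0.14, adjusted p = 0.000302). Alpha-galactosidases, which take galactose off raffinose sugars, were lower in 12 of 15 contigs and higher in 1, which was not called without rehydrated replicate 3. Cp_V2_contig_12735 had 10.8, 8.12 and 4.32 RPKM in the rehydrated libraries, against 324, 265 and 201 RPKM in the 60% RWC libraries (log2 fold -5.37, SE 0.36, adjusted p = 9.1e-06). The more abundant Cp_V2_contig_11866 of that name differed less, with 88.4 ± 13 RPKM in rehydrated leaves and 145 ± 11.8 RPKM in 60% RWC leaves (SD, n = 3 each) and a log2 fold of -0.98 (SE 0.15).

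Aquaporin contigs differed in direction, also within a type, and the difference between types was not tested. Tonoplast channels, which pass water into the vacuole, held the most abundant contigs, and these were far lower in rehydrated leaves. The gamma-tonoplast intrinsic protein Cp_V2_contig_1109 had 359.8, 313 and 178 RPKM in the rehydrated libraries, against 12299, 12384 and 12619.5 RPKM in the 60% RWC libraries (log2 fold -5.73, SE 0.27, adjusted p = 1.72e-07). The TIP1-1 contig Cp_V2_contig_1841 had 191, 173 and 88 RPKM in the rehydrated libraries, against 7262, 6867 and 6947 RPKM in the 60% RWC libraries (log2 fold -5.82, SE 0.29, adjusted p = 3.61e-07). Another TIP1-1 contig, Cp_V2_contig_6447, had a log2 fold of -5.59 (SE 0.29). Rehydrated replicate 3 was the lowest library in all 3. Their fresh means, 497, 261 and 80.5 RPKM, and their means at 2% RWC, 476, 259 and 55.7 RPKM, were far nearer to the rehydrated levels than to those at 60% RWC. Of 9 tonoplast contigs tested 4 were lower and none higher; the other 5 had positive log2 folds of 0.66 to 3.18 that missed the threshold, and the median over the 9 was 0.66, and 0.08 without rehydrated replicate 3. As a share of reads all aquaporins together took 0.170%, 0.135% and 0.135% in rehydrated libraries and 1.33%, 1.27% and 1.31% at 60% RWC.

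Plasma membrane aquaporins (PIP), which pass water into the cell, were higher in 8 of 11 contigs and lower in 3. Cp_V2_contig_580 had 279, 229 and 246 RPKM in the rehydrated libraries, against 42.8, 36.8 and 45.2 RPKM in the 60% RWC libraries (log2 fold 2.33, SE 0.15, adjusted p = 8.89e-07). Cp_V2_contig_3378 had 97.6, 75.8 and 78.1 RPKM in the rehydrated libraries, against 7.1, 6.13 and 6 RPKM in the 60% RWC libraries (log2 fold 3.44, SE 0.17, adjusted p = 1.94e-07). For Cp_V2_contig_716 the values were 346, 261 and 288 RPKM in rehydrated leaves and 128, 112 and 139.7 RPKM in 60% RWC leaves (log2 fold 0.97, SE 0.16, adjusted p = 0.000497). In contrast Cp_V2_contig_10540, which shares its description with Cp_V2_contig_580, had 119.7, 97.9 and 92.5 RPKM in rehydrated leaves and 152, 169 and 190.5 RPKM in 60% RWC leaves (log2 fold -0.99, SE 0.15, adjusted p = 0.000285). The groups did not overlap in any of the 4, and the 3 that were higher had their lowest means at 2% RWC. SIP and NIP types were lower in 8 of 13 contigs and higher in 5. SIP1-1-like Cp_V2_contig_22417 had 16.9, 13.3 and 9.3 RPKM in rehydrated leaves and 67.2, 68.2 and 72.9 RPKM in 60% RWC leaves (log2 fold -2.67, SE 0.20, adjusted p = 2.5e-06), and NIP2-1-like Cp_V2_contig_23384 had a log2 fold of -2.25 (SE 0.27).

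**Figure D4:**
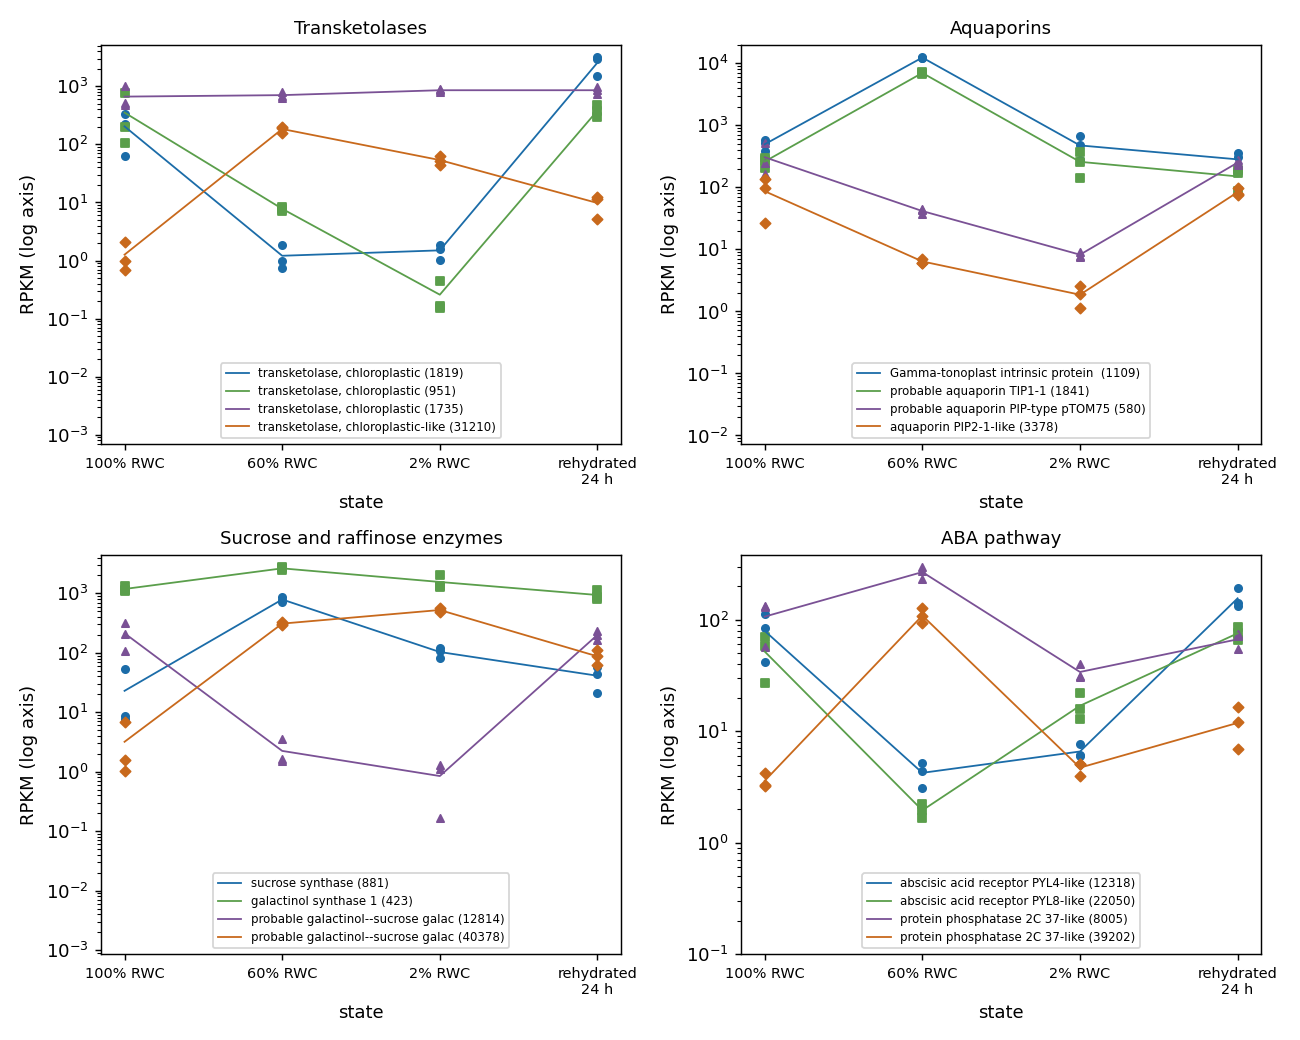
RPKM (log axis) of 4 contigs each of transketolases, aquaporins, sucrose and raffinose enzymes and the ABA pathway across fresh (100% RWC), 60% RWC, 2% RWC and rehydrated 24 h leaves; points are libraries, lines join the means of 3 libraries, and numbers in parentheses are contig numbers. Transketolase Cp_V2_contig_1819 and plasma membrane aquaporins Cp_V2_contig_580 and Cp_V2_contig_3378 are low in both dried states and high in fresh and rehydrated leaves, while tonoplast aquaporins Cp_V2_contig_1109 and Cp_V2_contig_1841 peak at 60% RWC alone.

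Genes of photosynthesis were broadly higher in rehydrated leaves. In the list of photosystems and thylakoid electron transport 120 of 154 contigs were higher and 4 lower, with a median log2 fold of 1.37. Its reads made up 4.30%, 3.76% and 3.46% of rehydrated libraries, against 1.78%, 1.62% and 1.85% of 60% RWC libraries. Plastocyanin, the copper carrier between cytochrome b6f and photosystem I, was its most abundant contig: Cp_V2_contig_709 had 3824, 3574 and 2869 RPKM in the rehydrated libraries, against 571, 636 and 662 RPKM in the 60% RWC libraries (log2 fold 2.18, SE 0.15, adjusted p = 1.53e-06). The largest fold was PsbS, the photosystem II 22 kDa protein that dissipates excess light energy. Its contig Cp_V2_contig_3351 had 73.3, 49.6 and 43.2 RPKM in the rehydrated libraries, against 1.59, 1.14 and 2.25 RPKM in the 60% RWC libraries (log2 fold 4.77, SE 0.29, adjusted p = 7.3e-07). The oxygen-evolving enhancer Cp_V2_contig_1113 had 3526, 3111 and 2758 RPKM in rehydrated leaves and 691, 655 and 803 RPKM in 60% RWC leaves (log2 fold 1.86, SE 0.15, adjusted p = 4.58e-06). A reaction centre subunit of photosystem I, Cp_V2_contig_1408, had a smaller log2 fold of 1.17 (SE 0.17). In each, every rehydrated library lay above every 60% RWC library, and replicate 3 was the lowest of the rehydrated.

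Light-harvesting proteins were higher in 26 of 33 contigs and lower in 3, and some of the exceptions were abundant. Cp_V2_contig_159, the contig with the highest level of the list, had 2411, 2152 and 1236 RPKM in rehydrated leaves and 2201, 2236 and 2422 RPKM in 60% RWC leaves (log2 fold -0.52, SE 0.21, adjusted p = 0.0632). The RPKM values overlapped, but after the scaling of the test the groups did not. It was not called with all libraries, but it was without rehydrated replicate 3 (log2 fold -0.32, adjusted p = 0.0357). Cp_V2_contig_172, of the photosystem II antenna, had 1588, 1355 and 908 RPKM in rehydrated leaves and 2512, 2416 and 2574 RPKM in 60% RWC leaves (log2 fold -1.24, SE 0.19, adjusted p = 0.000312) and was lower. Other antenna contigs were several times higher. Cp_V2_contig_296 had 3353, 2937 and 2766 RPKM in rehydrated leaves and 384, 432 and 513 RPKM in 60% RWC leaves (log2 fold 2.50, SE 0.16, adjusted p = 9.31e-07). Cp_V2_contig_109 (antenna protein 8), Cp_V2_contig_1048 (CP24), and Cp_V2_contig_269 and Cp_V2_contig_175 (both antenna protein 151) had log2 folds of 3.20, 2.95, 4.17 and 4.46. Cp_V2_contig_5361, the largest fold of the list, had 196, 135 and 131 RPKM in the rehydrated libraries, against 4.66, 2.44 and 2.92 RPKM in the 60% RWC libraries (log2 fold 5.24, SE 0.27, adjusted p = 3.65e-07). Its fresh mean was 832 RPKM, but the fresh libraries were uneven, at 927, 1447 and 122 RPKM. The last of these lay below every rehydrated library. Contigs named for the same antenna family were therefore not called, lower, or higher by up to 5.24 on the log2 scale.

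Calvin cycle contigs were higher in 45 of 59 and lower in 5 (median log2 fold 2.11). The Rubisco small subunit Cp_V2_contig_63, the most abundant, had 9919, 7271 and 7632 RPKM in the rehydrated libraries, against 1001, 1045 and 1212 RPKM in the 60% RWC libraries (log2 fold 2.66, SE 0.18, adjusted p = 1.14e-06). The largest fold among called members was glyceraldehyde-3-phosphate dehydrogenase Cp_V2_contig_2906, with 165, 142 and 128 RPKM in rehydrated leaves and 10.6, 12.4 and 9.57 RPKM in 60% RWC leaves (log2 fold 3.47, SE 0.17, adjusted p = 2.1e-07). Rubisco activase, which opens the sites of Rubisco, was higher in all 11 contigs. Cp_V2_contig_616 of that family had 3165, 2589 and 2123 RPKM in rehydrated leaves and 347, 294 and 382 RPKM in 60% RWC leaves (log2 fold 2.67, SE 0.18, adjusted p = 1.37e-06). Sedoheptulose-1,7-bisphosphatase, Cp_V2_contig_287, which regenerates the carbon acceptor, had a log2 fold of 2.48 (SE 0.15), and aldolase Cp_V2_contig_1332 one of 3.11 (SE 0.19). The more abundant glyceraldehyde-3-phosphate dehydrogenase Cp_V2_contig_435 had 1597 ± 322 RPKM in rehydrated leaves and 139 ± 14 RPKM in 60% RWC leaves (SD, n = 3 each).

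Chlorophyll synthesis had 62 of 85 contigs higher and 1 lower. The subunit ChlH of magnesium chelatase, which puts magnesium into the ring, was higher in all 15 contigs, with a median log2 fold of 3.21. Its contig Cp_V2_contig_10027 had 363, 292 and 273 RPKM in the rehydrated libraries, against 23, 24.9 and 29.8 RPKM in the 60% RWC libraries (log2 fold 3.31, SE 0.17, adjusted p = 2.32e-07). The cyclase Cp_V2_contig_1988, which closes the fifth ring, had 1083, 1001 and 945 RPKM in rehydrated leaves and 119, 127 and 139.8 RPKM in 60% RWC leaves (log2 fold 2.71, SE 0.14, adjusted p = 3.07e-07). Protochlorophyllide reductase, the light-driven step, was higher in all 6 contigs. The most abundant contig of the list belongs to it: Cp_V2_contig_3615 had 2073, 1784 and 1482 RPKM in the rehydrated libraries, against 206, 293 and 255 RPKM in the 60% RWC libraries (log2 fold 2.55, SE 0.18, adjusted p = 1.57e-06). Its fresh mean of 709.8 RPKM was below the rehydrated mean of 1779. The fresh libraries were uneven, at 307, 1628 and 195 RPKM, and overlapped the rehydrated ones. The largest fold was Cp_V2_contig_10401, a tetrapyrrole-binding protein of the chloroplast that activates the chelatase, with 248, 217 and 207 RPKM in rehydrated leaves and 12, 13.1 and 20 RPKM in 60% RWC leaves (log2 fold 3.63, SE 0.20, adjusted p = 4.29e-07). The rehydrated and 60% RWC groups did not overlap in any of these.

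Proteins that loosen or remodel the wall were higher in rehydrated leaves. Expansins, which loosen it, were higher in 19 of 23 contigs and lower in 1 (2 without rehydrated replicate 3), with a median log2 fold of 4.39. Cp_V2_contig_23232, expansin A10, had 142, 107 and 143 RPKM in the rehydrated libraries, against 1, 0.781 and 1.08 RPKM in the 60% RWC libraries (log2 fold 6.80, SE 0.25, adjusted p = 8.17e-08). Cp_V2_contig_11883, also expansin A10, had 134, 107 and 142 RPKM in rehydrated leaves and 0.732, 0.427 and 0.132 RPKM in 60% RWC leaves (log2 fold 7.87, SE 0.33, adjusted p = 1.32e-07). Cp_V2_contig_4625, expansin A8-like, had 119.9, 89.2 and 123 RPKM in the rehydrated libraries, against 0.787, 0.306 and 0.142 RPKM in the 60% RWC libraries (log2 fold 7.71, SE 0.36, adjusted p = 1.91e-07). All 3 were near silence at 60% RWC, and all 3 averaged more in fresh leaves (351, 328 and 293 RPKM) than in rehydrated ones. Xyloglucan endotransglucosylases, which cut and rejoin hemicellulose chains, were higher in 21 of 34 contigs and lower in 5. The most abundant contig of both families together, Cp_V2_contig_2992, had 182, 151 and 206 RPKM in rehydrated leaves and 145, 119 and 111 RPKM in 60% RWC leaves and was not called (log2 fold 0.26, SE 0.17). The largest fold was Cp_V2_contig_19227, with 60.6, 51.3 and 85.4 RPKM in the rehydrated libraries, against 0.235, 0 and 0.254 RPKM in the 60% RWC libraries (log2 fold 8.29, SE 0.47, adjusted p = 2.36e-06). Cp_V2_contig_3413 and Cp_V2_contig_415, with rehydrated means of 228 and 91.7 RPKM, had log2 folds of 2.30 and 5.03 (SE 0.28 and 0.49). Cp_V2_contig_6883 was lower, with 26.4, 15.5 and 19.2 RPKM in rehydrated leaves and 80.3, 90.4 and 70.6 RPKM in 60% RWC leaves (log2 fold -2.25, SE 0.21, adjusted p = 1.17e-05).

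Cellulose synthases were higher in 59 of 87 contigs and lower in 1 (3 without rehydrated replicate 3), and pectin enzymes were higher in 91 of 193 and lower in 28. Tubulins, the subunits of the microtubules that guide cellulose synthesis and divide cells, also leaned higher. Every one of 18 beta-tubulin contigs and 11 of 13 alpha-tubulin contigs were higher. Cp_V2_contig_23948, a beta-tubulin, had 426, 463 and 432 RPKM in the rehydrated libraries, against 5.88, 4.52 and 5.01 RPKM in the 60% RWC libraries (log2 fold 6.14, SE 0.17, adjusted p = 6.68e-08). Cp_V2_contig_2055, an alpha-tubulin, had 417, 341 and 321 RPKM in the rehydrated libraries, against 8.06, 8.34 and 8.71 RPKM in the 60% RWC libraries (log2 fold 5.15, SE 0.17, adjusted p = 7.5e-08). Both averaged more in rehydrated than in fresh leaves, which held 175 and 157 RPKM. The beta-tubulin Cp_V2_contig_3596, already present at 60% RWC, had 400.3 ± 51.8 RPKM in rehydrated leaves and 101.3 ± 11.2 RPKM in 60% RWC leaves (SD, n = 3 each). Kinesins, motor proteins on microtubules, were higher in 67 of 109 contigs and lower in 6. The list of cell cycle and DNA replication genes did not lean the same way: it had 44 of 209 contigs higher and 56 lower, near the background.

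Chaperones and heat stress factors split by family. The list of small heat shock proteins and heat stress factors had 15 of 75 contigs higher (20%) and 34 lower (45.3%). Heat stress factor A-2, a transcription factor of heat and drought responses, was lower in all 10 contigs (median log2 fold -3.37). The most abundant, Cp_V2_contig_37246, had 44.8, 31.4 and 32.5 RPKM in the rehydrated libraries, against 435, 358 and 387 RPKM in the 60% RWC libraries (log2 fold -3.71, SE 0.18, adjusted p = 1.94e-07). The largest fold was Cp_V2_contig_35507, with 10.2, 7.53 and 7.8 RPKM in rehydrated leaves and 112, 89.3 and 95.6 RPKM in 60% RWC leaves (log2 fold -3.80, SE 0.19, adjusted p = 1.94e-07). Small heat shock proteins named by size had 2 of 12 contigs higher and 3 lower. Cp_V2_contig_18031 of that kind, with 81.9, 126 and 75.8 RPKM in rehydrated leaves and 130.2, 131 and 126 RPKM in 60% RWC leaves, had a log2 fold of -0.72 (SE 0.18, adjusted p = 0.00623). The list of HSP70, HSP90 and HSP100 chaperones had 39 of 145 higher and 50 lower. Its most abundant contig, Cp_V2_contig_458, was not called, with 1193, 1364 and 985 RPKM in rehydrated leaves and 938, 945 and 1028 RPKM in 60% RWC leaves (log2 fold 0.01, SE 0.15). Cytosolic HSP70 contigs differed in direction: Cp_V2_contig_89 had 757, 849.5 and 455 RPKM in rehydrated leaves and 216, 228 and 245 RPKM in 60% RWC leaves (log2 fold 1.30, SE 0.20, adjusted p = 0.000376), while Cp_V2_contig_1762 had 210.1, 306 and 161 RPKM in rehydrated leaves and 555, 633 and 462 RPKM in 60% RWC leaves (log2 fold -1.56, SE 0.22, adjusted p = 0.000229). The HSP90 contig Cp_V2_contig_1156 had a log2 fold of 1.18 (SE 0.22). HSP83, Cp_V2_contig_40960, an HSP90 form, had the largest fold with 46, 37.5 and 42.7 RPKM in rehydrated leaves and 1.83, 3.02 and 0.986 RPKM in 60% RWC leaves (log2 fold 4.17, SE 0.31, adjusted p = 2.45e-06). Luminal-binding protein, the HSP70 of the endoplasmic reticulum, was higher in 7 of 9 contigs and lower in 1 (2 without rehydrated replicate 3). Cp_V2_contig_1592 had 507, 453 and 377 RPKM in rehydrated leaves and 112, 104 and 99.4 RPKM in 60% RWC leaves (log2 fold 1.81, SE 0.15, adjusted p = 4.42e-06).

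Antioxidant enzymes as a list stood near the background, with 73 of 271 contigs higher and 86 lower, but single enzymes leaned one way. Ascorbate peroxidases, which remove hydrogen peroxide with ascorbate, were higher in 11 of 17 contigs and lower in none. The cytosolic form Cp_V2_contig_6114 had 959.7, 1154 and 1157 RPKM in the rehydrated libraries, against 194, 173 and 184 RPKM in the 60% RWC libraries (log2 fold 2.30, SE 0.15, adjusted p = 8.56e-07). Cp_V2_contig_3845 of the same name had a log2 fold of 2.52 (SE 0.15). Cp_V2_contig_896, a chloroplast form, had 145, 184 and 245 RPKM in the rehydrated libraries, against 4.59, 5.87 and 5.08 RPKM in the 60% RWC libraries (log2 fold 4.95, SE 0.25, adjusted p = 2.9e-07); it was also high at 2% RWC (mean 152 RPKM). Glutathione peroxidases, which reduce lipid peroxides, were lower in 10 of 16 contigs and higher in 1. Cp_V2_contig_24180 had 57.7, 53.2 and 41.1 RPKM in the rehydrated libraries, against 446, 419 and 491 RPKM in the 60% RWC libraries (log2 fold -3.43, SE 0.16, adjusted p = 1.66e-07). Superoxide dismutases were lower in 9 of 20 contigs and higher in none, and catalases higher in 3 of 6 and lower in none. Without rehydrated replicate 3, superoxide dismutases had 11 of 21 contigs lower and 3 higher, catalases 5 of 7 higher and 1 lower, and glutathione peroxidases 11 lower and 3 higher. One monodehydroascorbate reductase contig, Cp_V2_contig_18892, had 19.5, 26 and 16.4 RPKM in rehydrated leaves and 186, 193 and 198 RPKM in 60% RWC leaves (log2 fold -3.50, SE 0.17, adjusted p = 1.94e-07), while the family had 8 of 19 contigs higher and 3 lower.

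The most abundant contig of the antioxidant list was the peroxiredoxin Cp_V2_contig_3107, which had 629, 559 and 937 RPKM in rehydrated leaves and 982, 1091 and 1019 RPKM in 60% RWC leaves (log2 fold -0.80, SE 0.21, adjusted p = 0.00938). Its largest fold was a microsomal glutathione S-transferase, Cp_V2_contig_37080, with 9.33, 17.2 and 57.6 RPKM in rehydrated leaves and 0, 0.795 and 0.42 RPKM in 60% RWC leaves (log2 fold 5.89, SE 1.18, adjusted p = 0.00866). Replicate 3 was the highest rehydrated library in both, and in the transferase it was more than 3 times replicate 2; without it the transferase had a log2 fold of 4.72. The thioredoxin Cp_V2_contig_8366 had 129, 134 and 147 RPKM in rehydrated leaves and 633, 577 and 629 RPKM in 60% RWC leaves (log2 fold -2.43, SE 0.14, adjusted p = 5.17e-07), and the glutaredoxin Cp_V2_contig_2128 a log2 fold of -2.52 (SE 0.14). A 1-Cys peroxiredoxin, a type known from seeds, had 34.3, 26.8 and 14 RPKM in rehydrated leaves, against 197, 154 and 194 RPKM in 60% RWC leaves (Cp_V2_contig_1854, log2 fold -3.13, SE 0.30).

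Genes of protein synthesis mostly did not pass the test. Cytosolic ribosomal proteins had 49 of 429 contigs higher and 66 lower, and their most abundant contig, Cp_V2_contig_3723 (S8-like), had 642.9, 563 and 399.8 RPKM in rehydrated leaves and 454, 586 and 507 RPKM in 60% RWC leaves with an adjusted p of 0.325 by edgeR's quasi-likelihood test. Their largest fold was the L18a-like Cp_V2_contig_3950, with 17.1, 21.2 and 11 RPKM in rehydrated leaves and 63.2, 74.9 and 76.1 RPKM in 60% RWC leaves (log2 fold -2.40, SE 0.21, adjusted p = 7.89e-06). Ribosome assembly and nucleolar proteins had 18 of 248 higher and 46 lower. The most abundant was Cp_V2_contig_9909, a nucleolar protein 5-2, with 218, 248 and 120.1 RPKM in rehydrated leaves and 194, 255 and 192 RPKM in 60% RWC leaves (log2 fold -0.41, SE 0.24), where the groups overlapped. The rRNA-processing protein Cp_V2_contig_1979 was lower, with 88.4, 98.7 and 64.6 RPKM in rehydrated leaves and 321, 285 and 301 RPKM in 60% RWC leaves (log2 fold -2.12, SE 0.16, adjusted p = 2.76e-06). The largest fold in that list, gar2-like Cp_V2_contig_33231, had 38, 43.9 and 65 RPKM in rehydrated leaves and 0.603, 1.41 and 0.261 RPKM in 60% RWC leaves (log2 fold 5.76, SE 0.44, adjusted p = 9.09e-06). Translation factors leaned to lower, with 86 of 241 against 23 higher, and so did the mitochondrial respiratory chain, with 70 of 164 against 16. Splicing factors and RNA helicases had 90 of 407 lower (22.1%, near the 23.1% of all contigs) and 21 higher (5.16%). Autophagy contigs were lower in 17 of 56 (30.4%) and higher in 2 (3.57%). Proteasome contigs were higher in 37 of 129 (28.7%, near the 26.3% of all contigs) and lower in 5 (3.88%). Without rehydrated replicate 3, ribosome assembly contigs higher numbered 28, splicing contigs higher 33, autophagy contigs higher 1 and proteasome contigs lower 10.

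Genes of low oxygen and fermentation split within enzyme families, and rehydrated replicate 3 was the highest library for most of the named contigs that were higher. The list had 27 of 64 contigs higher and 10 lower, and its reads were 0.122%, 0.134% and 0.212% of rehydrated libraries against 0.0859%, 0.0805% and 0.0821% at 60% RWC. Pyruvate decarboxylase, which starts ethanol fermentation, was lower in 5 of 9 contigs and higher in 1. The one that was higher, Cp_V2_contig_30519, had 22.2, 85.1 and 211 RPKM in the rehydrated libraries, against 0.359, 0.533 and 0.846 RPKM in the 60% RWC libraries (log2 fold 7.27, SE 1.17, adjusted p = 0.0049), and a log2 fold of 6.19 without rehydrated replicate 3. Cp_V2_contig_643, which was lower, had 10.6, 11.9 and 10.6 RPKM in the rehydrated libraries, against 90.2, 82.2 and 88.9 RPKM in the 60% RWC libraries (log2 fold -3.25, SE 0.13, adjusted p = 1.08e-07). The values of the first spread widely between the rehydrated libraries and those of the second hardly at all, and in neither did the groups overlap.

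Alcohol dehydrogenase, the next step, was higher in 9 of 18 contigs and lower in 3. Cp_V2_contig_9048 had 13.2, 36.6 and 212 RPKM in the rehydrated libraries, against 0, 0.515 and 0.476 RPKM in the 60% RWC libraries (log2 fold 7.79, SE 1.81, adjusted p = 0.0185). Without replicate 3 its log2 fold was 5.87 (adjusted p = 0.000143 by edgeR's quasi-likelihood test), and with another library left out its adjusted p reached 0.0652. Cp_V2_contig_9049 and Cp_V2_contig_41788 had the same order of libraries, with adjusted p-values up to 0.0668 and 0.0866 when 1 library was left out and, for the first of them, a log2 fold of 4.29 without replicate 3, against 6.07 with it. In the opposite direction Cp_V2_contig_24820 had 6.08, 4.56 and 3.66 RPKM in rehydrated leaves and 60.4, 69.1 and 42.7 RPKM in 60% RWC leaves (log2 fold -3.86, SE 0.24, adjusted p = 1.16e-06), and it was also expressed at 2% RWC (mean 47.7 RPKM). The class-3 alcohol dehydrogenase Cp_V2_contig_5379, which oxidises bound formaldehyde and not ethanol, had 99.1 ± 11.6 RPKM in rehydrated leaves and 137 ± 8.43 RPKM in 60% RWC leaves (SD, n = 3 each). Haemoglobins, which scavenge nitric oxide under low oxygen, showed the same split. Cp_V2_contig_22428 had 53, 82.9 and 563 RPKM in the rehydrated libraries, against 3.73, 3.29 and 2.5 RPKM in the 60% RWC libraries (log2 fold 5.96, SE 1.29, adjusted p = 0.0145), with an adjusted p of up to 0.0582 when 1 library was left out and a log2 fold of 4.08 without rehydrated replicate 3. Cp_V2_contig_36901 had 1.9, 2.17 and 3.64 RPKM in rehydrated leaves and 11.7, 11.1 and 12.6 RPKM in 60% RWC leaves (log2 fold -2.45, SE 0.26, adjusted p = 3.08e-05). Each of these proteins thus had contigs of one name called in opposite directions.

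Of the oxygen sensing machinery, plant cysteine oxidase 2, which marks ERF factors of group VII for breakdown when oxygen is present, had the largest fold of the list. Cp_V2_contig_26556 had 16.5, 23.4 and 42.9 RPKM in the rehydrated libraries, against 0, 0.143 and 0 RPKM in the 60% RWC libraries, or 633 reads against 1, a ratio of 629.8 with an exact 95% counting interval from 112.6 to 24920. RAP2-12-like factors, which belong to that ERF group, were higher: Cp_V2_contig_18810, the most abundant contig of the list, had 258, 215 and 250.1 RPKM in rehydrated leaves and 129, 108 and 117 RPKM in 60% RWC leaves (log2 fold 0.76, SE 0.14, adjusted p = 0.00139). Cp_V2_contig_144 had 221, 209 and 280.1 RPKM in rehydrated leaves and 38.3, 42.1 and 33.8 RPKM in 60% RWC leaves (log2 fold 2.37, SE 0.18, adjusted p = 2.23e-06). Here the rehydrated libraries were even, with replicate 3 within the spread of Cp_V2_contig_18810 and highest of Cp_V2_contig_144.

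Class III peroxidases, secreted enzymes that act in the wall and in defence, showed a wide gap between rehydrated libraries. Of 14 contigs named cationic or lignin-forming peroxidase 10 were higher and none lower; without replicate 3, 13 were higher, and the median log2 fold was 5.60 rather than 7.99. Cp_V2_contig_36444 had 25.4, 31.2 and 524 RPKM in the rehydrated libraries, against 0.135, 0.471 and 0 RPKM in the 60% RWC libraries (log2 fold 9.63, SE 2.39, adjusted p = 0.023). Cp_V2_contig_13540 had 12.2, 11.5 and 277 RPKM in the rehydrated libraries, against 0.249, 0.116 and 0 RPKM in the 60% RWC libraries (log2 fold 9.36, SE 2.41, adjusted p = 0.0261). Replicate 3 was over 10 times the others in both, and replicates 1 and 2 were still far above every 60% RWC library. Cp_V2_contig_18867 and Cp_V2_contig_16951 had the same order, with replicate 3 at 294 and 189 RPKM. The adjusted p-values of the first 2 reached 0.0788 and 0.0864 with 1 library left out, and were 2.3e-08 and 4.48e-08 without replicate 3. Without it the log2 folds of the 4 were 6.75, 6.18, 4.92 and 4.50. Cp_V2_contig_41312, a WRKY factor, had 6.24, 5.81 and 71 RPKM in rehydrated leaves and 1.69, 0.455 and 0.702 RPKM in 60% RWC leaves; it was not called with all 6 libraries (adjusted p = 0.056) and was without replicate 3 (log2 fold 2.30, adjusted p = 0.00106, edgeR's quasi-likelihood test). The wound-induced protein Cp_V2_contig_44639 behaved alike, with an adjusted p of 0.0582 with and 0.000558 without that library. Over the 22317 contigs of the upper 50% by level, replicate 3 was at least 4-fold above the mean of the other 2 rehydrated libraries in 183 and below it in 15. Why that library stands apart was not tested, and the labels name no batch.

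**Figure D5:**
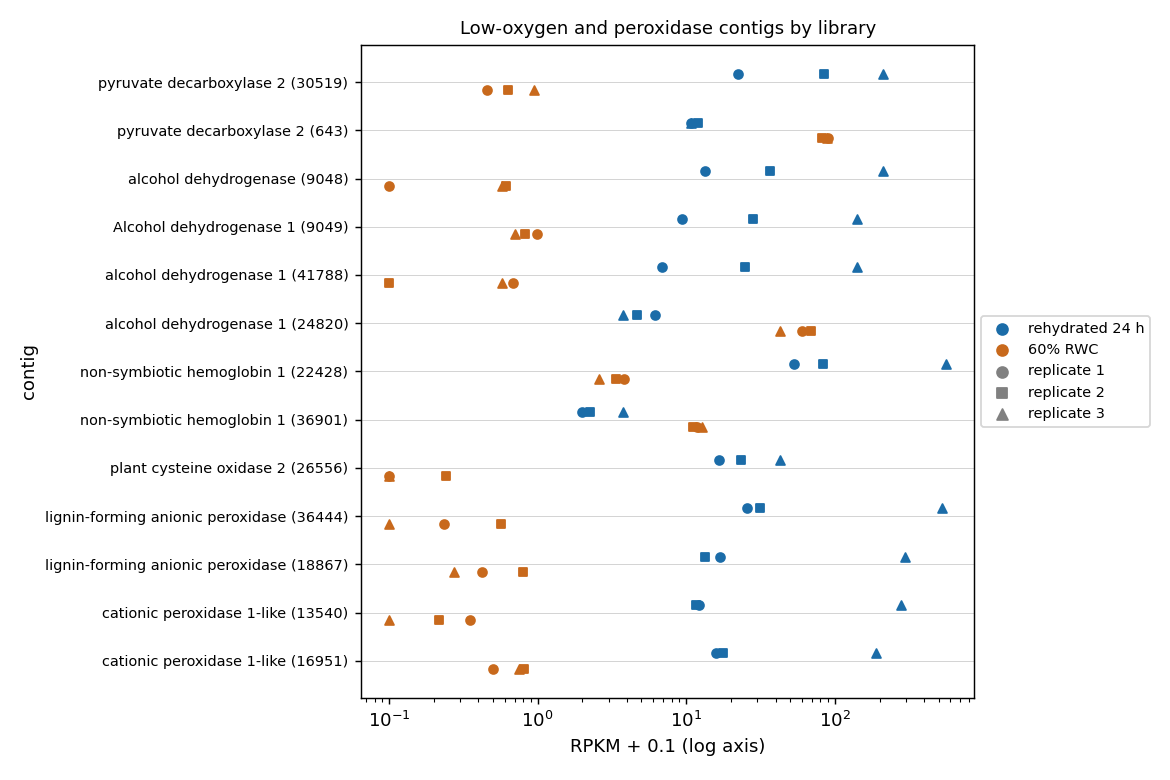
RPKM + 0.1 (log axis) in each library of 13 contigs of fermentation, haemoglobin, cysteine oxidase and peroxidase genes; blue, above, are rehydrated 24 h libraries and orange 60% RWC libraries, and the marker shape gives the replicate. In the contigs higher in rehydrated leaves replicate 3 (triangle) lies furthest right, at 524 RPKM against 25.4 and 31.2 for peroxidase Cp_V2_contig_36444, while decarboxylase Cp_V2_contig_643 and dehydrogenase Cp_V2_contig_24820 lie at lower levels in all 3 rehydrated libraries than at 60% RWC.

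WRKY factors and auxin genes had more contigs higher than lower. WRKY factors, many of which act in defence, had 61 of 122 contigs higher and 6 lower, and 53 and 8 without replicate 3; their share of reads was 0.126%, 0.153% and 0.244% in rehydrated libraries and 0.0758%, 0.0761% and 0.0596% at 60% RWC. Auxin genes had 93 of 205 higher and 18 lower, and lipoxygenase and jasmonate genes 42 of 85 higher and 10 lower. Nitrogen uptake and assimilation had 79 of 152 higher and 24 lower. Wax, cutin and lipid transfer genes, which build the leaf surface, had 118 of 210 higher and 47 lower, while their share of reads ran the other way, at 0.323%, 0.311% and 0.310% in rehydrated libraries and 0.382%, 0.364% and 0.396% at 60% RWC. NAC, MYB and bZIP factors stood near the background in both directions, with 23 and 24 of 100, 49 and 42 of 206, and 23 and 27 of 90. Contigs of retrotransposon proteins had 60 of 544 higher and 157 lower. A hydrolase of the haloacid dehalogenase type was among the most abundant contigs that were higher: Cp_V2_contig_711 had 3800.2, 3946 and 2475 RPKM in the rehydrated libraries, against 28.1, 26.4 and 26.4 RPKM in the 60% RWC libraries (log2 fold 6.70, SE 0.22, adjusted p = 7.5e-08), and its means were 2201 RPKM in fresh and 0.786 RPKM in 2% RWC leaves.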

How the data were processed

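Pooled leaf RNA was made into stranded libraries and sequenced as 75 bp paired reads, per the labels. The authors deposited 1 table of 48045 contigs of their assembly with, per the file headers, total and unique gene reads (counts), RPKM values and contig lengths; the sources used here name no mapper, counter or assembler. Columns were matched to the labels by state and replicate number, and the 4 columns of authors' means were not used. Total reads of the 6 libraries alone entered edgeR 4.0.16 in R 4.3.3 (filterByExpr with a minimum count of 10 and a minimum total of 15, which left out 3411 contigs; TMM; robust quasi-likelihood test; Benjamini-Hochberg), after the scripts were tested on simulated data. The deposited RPKM values served for levels only. Exact permutation tests were not used, because 3 libraries against 3 cannot go below a two-sided p of 0.1. DESeq2 1.42.0, other scalings, unique reads, no filter, a replicate block, all 12 libraries and leaving out each library were alternatives. Lists came from words in the descriptions. Contigs, lists and families were chosen with earlier results of these data known, so their counts are descriptions. By rule the text names the 6 highest and 6 lowest folds among contigs without overlap between the groups. For each of 18 lists it names the most abundant contig and the largest called fold. In these 6 libraries 98.52% to 98.6% of reads matched 1 contig only, and contigs of 1 gene family can still share reads. Pools were independent per the labels, so p-values measure the spread between pools.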

Additional observations from a re-analysis of the deposited data

How the results depend on the processing

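The counts of contigs called higher and lower in rehydrated leaves kept within 1.5 times of 11734 and 10326 under each of the 13 alternatives. They were 11102 and 9881 with DESeq2, which gave no adjusted p for 47 contigs, 11513 and 10545 with RLE scaling, 11566 and 10419 with upper-quartile scaling, 11745 and 10316 with unique reads, 11901 and 10439 with no filter, and 9096 and 8125 when all 12 libraries shared 1 estimate of spread. Leaving out 1 library gave 9694 to 11707 higher and 8536 to 11297 lower, the lowest without 60% RWC replicate 1 and the highest without rehydrated replicate 3. The correlations of same-numbered deviations were -0.09, -0.005 and -0.13, no sign that replicate numbers pair these pools. Such values from 3 pools a state cannot exclude pairing. With the number as a replicate block 10854 contigs were higher and 9658 lower. No named contig reversed in direction. Over 156 named contigs and these alternatives, 40 of 2022 values lost their call, in 23 contigs, and 17 gained one, in 5 contigs; for 13 of the 23 the loss came only with all 12 libraries in the fit. The others were contigs with uneven rehydrated libraries (cytochrome P450 Cp_V2_contig_47176, alcohol dehydrogenases, haemoglobin Cp_V2_contig_22428, peroxidases, sucrose synthase Cp_V2_contig_30506), and the cause was not tested. Of 1404 counts per list, 66 moved beyond 1.5 times, 23 of them with all 12 libraries. With 3 pools a state, differences in contigs with uneven libraries may have been missed, and a contig with few reads is limited by counting.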

Other observations

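Other lists of described contigs, not given above, are reported here as counts of contigs higher and lower in rehydrated than in 60% RWC leaves, to be read against 26.3% and 23.1% over all contigs. Proteases, which include the cysteine and aspartic enzymes of the vacuole, had 121 higher and 65 lower of 275. Phenylpropanoid and flavonoid genes, which make lignin and pigments, had 97 and 46 of 233. Ethylene genes had 84 and 44 of 242, and gibberellin genes 14 and 4 of 42. HD-Zip factors had 35 and 22 of 91. Their share of reads ran the other way, at 0.1097%, 0.1111% and 0.1002% in rehydrated libraries and 0.1635%, 0.1605% and 0.1656% at 60% RWC. ERF and DREB factors, which take part in drought and cold responses, had 46 and 38 of 166. Circadian clock genes had 24 and 14 of 93; the labels give no hour of collection. Sugar transporters had 23 and 17 of 74, phospholipases 41 and 32 of 108, histones 8 and 4 of 40, and starch genes 22 and 33 of 95, so that only starch among these 4 had more contigs lower than higher. By share of reads phospholipases were lower, at 0.208%, 0.202% and 0.184% in rehydrated libraries and 0.331%, 0.332% and 0.326% at 60% RWC. Markers of trichomes had 27 and 5 of 63 and markers of flowers 23 and 16 of 67, and root markers 2 and 3 of 13. None of these lists was tested as a set.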
